A study of Mus musculus with 17 samples.

Results

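The genes described here are 9 mouse receptors for extracellular nucleotides, the P2X genes P2rx1, P2rx4 and P2rx7 and the P2Y genes P2ry1, P2ry2, P2ry6, P2ry12, P2ry13 and P2ry14. They were chosen by symbol from a raw count table of 21640 genes, and all 9 were found. P2X receptors are cation channels that open when ATP binds, and P2Y receptors are G protein-coupled receptors for ATP, ADP, UTP, UDP or UDP-sugars. In arteries, ATP released with noradrenaline from perivascular nerves contracts smooth muscle through P2X1, whereas nucleotides acting on P2Y receptors of the endothelium relax the vessel. In the brain, P2ry12, P2ry13 and P2ry6 are known mainly from microglia, the resident macrophages.

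RNA was measured by bulk RNA-seq in 17 libraries of 4 groups, and the study asked which receptors for neuronal messengers arteriolar smooth muscle cells (aSMCs) of the brain carry. Ai47 aSMCs (6 libraries) are EGFP-positive cells sorted from an enriched vessel fraction of adult SMACreER:Ai47 brain after tamoxifen, with CD31-positive endothelial cells and CD45-positive immune cells removed in the sort. The labels give these 6 libraries as Ai47, whereas 1 legend of the study names SMACreER:Ai14 for sorted aSMCs, and the labels are followed here. Ai14 aSMCs (2 libraries, replicates 7 and 8) are tdTomato-positive cells sorted from SMACreER:Ai14 mice, and astrocytes (3 libraries) are tdTomato-positive cells sorted from hGFAPCreER:Ai14 mice. Cortex (6 libraries) is unsorted cortical homogenate that the labels call WT and the study's text describes as a share of the dissociated tissue kept back before sorting. In the sorted groups a tamoxifen-inducible Cre, driven by the smooth muscle actin promoter or by the human GFAP promoter, switches on the reporter, so other cells in which that promoter is active can carry the reporter too.

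Library totals were 41499087 to 53643624 counts in Ai47 aSMCs, 14870507 and 14979228 in Ai14 aSMCs, 4537137 to 7390630 in astrocytes and 5397905 to 7288036 in cortex. The mitochondrial share of counts was 0.214% to 0.559% in Ai47 aSMCs, 16.8% and 17.6% in Ai14 aSMCs, 10.7% to 12.5% in astrocytes, 35.7% to 59.0% in cortex libraries 1 to 3 and 67.7% to 72.9% in cortex libraries 4 to 6. Of 12275 genes with a mean of at least 10 counts in Ai47 aSMCs, 169 (1.38%) had the same count in 5 or more of the 6 libraries, against 8 of 11212 (0.0714%) in cortex. The cause was not tested, and p-values measure only the spread between these libraries. The 10 smooth muscle markers summed to 6268 to 7458 CPM in Ai47 aSMCs and 10207 and 11022 CPM in Ai14 aSMCs, against 45.1 to 176 CPM in cortex. The 10 endothelial markers summed to 108 to 251, 311 and 280, and 316 to 1106 CPM in the same groups. Of these 10, 2 were higher in Ai47 aSMCs than in cortex (Cldn5 and Egfl7) and 6 were lower, most so Slc2a1 and Cdh5. Over all genes tested 33.6% were higher and 25% lower. The part of endothelial RNA in the results was not tested. The labelled astrocytes met their markers in part: against cortex 1 of 10 astrocyte markers was higher (Gja1) and 3 were lower, Gjb6 and Slc7a10 had no counts, and the sum was 1141 to 1781 CPM, against 3387 to 18448 CPM in cortex. Their part in the results on astrocytes was not tested. CPM here is the count scaled to library size with TMM factors over all 17 libraries, and in bulk samples fewer cells of a type and less RNA per cell cannot be told apart.

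The receptors split the sorted Ai47 aSMCs from cortex in both directions. P2rx1 and P2ry14 were high in aSMCs, with P2rx1 close to 0 in cortex and P2ry14 low there (0.624 to 8.13 CPM). P2ry12 and P2ry13 were high in cortex and at or close to 0 in Ai47 aSMCs. With the quasi-likelihood test of edgeR and Benjamini-Hochberg adjusted p under 0.05, 2 of the 6 members that passed the filter on low counts were higher in Ai47 aSMCs than in cortex and 2 were lower. Over all 11548 genes tested, 33.6% were higher and 25% were lower, so a call in either direction was common in this comparison. The median log2 fold change was 0.96 over the 6 members tested and 0.32 over all genes tested. P2ry1, P2ry2 and P2ry6 fell under the filter in the fit of these 12 libraries, and P2ry2 also in the fit of all 17. The plot of CPM by library shows the spread behind each mean.

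**Figure D1:**
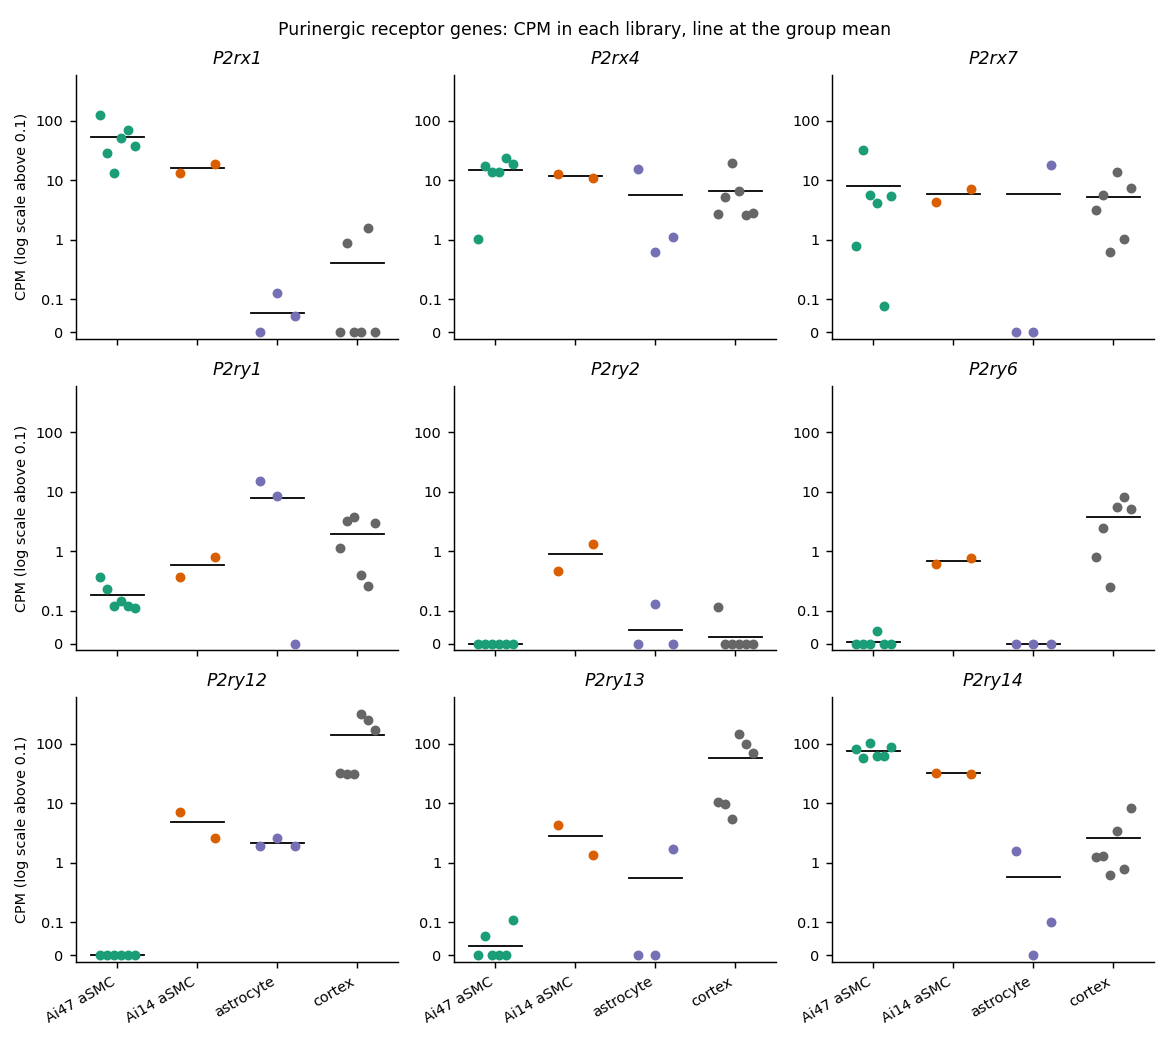
CPM (TMM scaling over 17 libraries, logarithmic above 0.1 CPM) of the 9 receptor genes in each library of Ai47 aSMCs (6), Ai14 aSMCs (2), astrocytes (3) and cortex (6); each point is 1 library and each line the group mean. P2rx1 and P2ry14 sit between 13.4 and 123 CPM in all 8 aSMC libraries and at 8.13 CPM or less in the other 9, and P2ry12 has no counts in any Ai47 library.

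P2rx1 encodes the ATP-gated channel that carries fast sympathetic signals in arterial smooth muscle and is also found on platelets. It lies on chromosome 11 at 72999103-73015200 on the plus strand (GRCm38, GENCODE M21), with no overlapping gene. The level in the Ai47 aSMC libraries was 13.5 (lowest), 44.9 (median) and 123 (highest) CPM, against 0, 0 and 1.55 CPM in cortex. Every Ai47 library was above every cortex library, and 4 of the 6 cortex libraries had no count of the gene. The mean of the 6 Ai47 libraries was 54.5 ± 39.0 CPM (SD) and that of the 6 cortex libraries 0.404 ± 0.662 CPM. The log2 fold change was 7.27 ± 1.08 (SE) with an adjusted p of 2.21e-05 in edgeR, and an exact two-sided permutation test gave 0.00216, the smallest p that 6 against 6 libraries can give. It passed under all 23 alternatives, with log2 fold changes of 5.79 to 8.19.

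In Ai14 aSMCs P2rx1 was at 13.4 and 18.8 CPM, also above every cortex library, with a log2 fold change of 5.36 ± 1.16 and an adjusted p of 0.00684 (edgeR). In astrocytes it had 0, 1 and 1 counts. Set against those 2 counts in all, the ratio of Ai47 aSMCs to astrocytes was 1009.7 (279 to 8339, exact Clopper-Pearson interval at 95%) and that of Ai14 aSMCs to astrocytes was 309 (85.2 to 2552). These intervals, and the bounds given below, cover counting error only, since reads are not independent molecules. P2rx1 was higher in both aSMC groups than in astrocytes in edgeR (log2 fold changes of 9.79 and 8.03, adjusted p of 0.000179 and 0.00363). Between Ai47 and Ai14 aSMCs the log2 fold change was 1.76 ± 1.32, which did not pass (adjusted p = 0.360, edgeR) and was -0.47 with library totals, and the libraries of the 2 groups overlapped. Of the 10 platelet markers listed, 9 were in the table. They summed to 0.786 to 10.1 CPM in Ai47 aSMCs and 21.3 and 20.5 CPM in Ai14 aSMCs, against 3.99 to 28.7 CPM in cortex, so in the Ai14 libraries the sum was above P2rx1 itself. Itgb3, an integrin subunit of platelets and other cells, made up most of it in Ai14 aSMCs (18.8 ± 1.43 CPM), while Pf4, Ppbp and Gp5 had no counts in Ai47 aSMCs and 0.198 CPM or less on average in Ai14 aSMCs. Gp6 averaged 0.949 CPM in Ai47 aSMCs and 0.471 CPM in Ai14 aSMCs, against 0.0703 CPM in cortex. Gp1bb averaged 1.08 CPM in Ai14 aSMCs and 3.15 CPM in cortex. In Ai47 aSMCs against cortex DESeq2 called 1 platelet marker higher and 3 lower, beside 4729 and 4396 of 20214 genes. The part of platelet RNA in the result was not tested.

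P2rx4 encodes a calcium-permeable ATP-gated channel found in macrophages, microglia and endothelium, and P2rx7 encodes the channel that needs high ATP and activates the inflammasome in macrophages. They are neighbours on chromosome 5, P2rx7 at 122643911-122691432 and P2rx4 at 122707544-122729738, both on the plus strand and 16.1 kb apart, and 119 bases of the P2rx7 exons are also those of the microRNA gene Mir8115. P2rx4 was at 1.05, 15.8 and 23.3 CPM (lowest, median and highest) in Ai47 aSMCs, against 2.58, 4.08 and 19.3 CPM in cortex. The groups overlapped through 1 library on each side, Ai47 replicate 1 at 1.05 CPM and cortex replicate 3 at 19.3 CPM. The log2 fold change of 1.24 ± 0.69 did not pass (adjusted p = 0.133, edgeR), while it was 1.47 without Ai47 replicate 1 (adjusted p = 0.0391) and 2.0 without cortex replicate 3 (adjusted p = 0.0203), within a range of 0.0203 to 0.911 over the 23 alternatives. Ai14 aSMCs had 12.9 and 10.9 CPM of P2rx4, inside the cortex range, and astrocytes had 15.5, 0.634 and 1.11 CPM, with 1 library high and 2 low. None of the 6 comparisons of P2rx4 passed, although that of Ai47 aSMCs with astrocytes did without astrocyte replicate 1 (4.26, adjusted p = 0.0125, in a range of 0.0125 to 0.495 over 18 alternatives).

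P2rx7 spread widely within each of the larger groups. It was at 0.0809, 4.79 and 32.5 CPM in Ai47 aSMCs (2 counts in replicate 5 and 570 in replicate 2), 4.29 and 7.24 CPM in Ai14 aSMCs, 0, 0 and 17.7 CPM in astrocytes, and 0.624, 4.38 and 13.8 CPM in cortex. All 4 groups overlapped, apart from the 2 astrocyte libraries at 0. None of the 6 comparisons passed, with log2 fold changes of -0.04 to 0.68. Against cortex, leaving out Ai47 replicate 2 turned the difference to -0.70, and leaving out astrocyte replicate 3 turned the astrocyte difference from cortex to a fitted value of -9.53 that passed (adjusted p = 0.0171, edgeR, in a range of 0.0171 to 1 over 19 alternatives). Without that library P2rx7 also passed as higher in Ai47 and in Ai14 aSMCs than in astrocytes, which then had no counts of it (adjusted p = 0.00887, in a range of 0.00887 to 0.977 over 18 alternatives, and 0.0327, in a range of 0.0327 to 1 over 12).

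P2ry14, P2ry13 and P2ry12 lie close together on the minus strand of chromosome 3, at 59113855-59153618, 59207892-59210882 and 59216272-59262871. P2ry14 is a Gi-coupled receptor for UDP-glucose and other UDP-sugars, and P2ry12 and P2ry13 are Gi-coupled receptors for ADP, P2ry12 being the target of the antiplatelet drug clopidogrel. The gaps are 54.3 kb between P2ry14 and P2ry13 and 5.39 kb between P2ry13 and P2ry12. All 3 lie inside Med12l, a gene of the plus strand whose exons share 9 bases with those of P2ry12 and none with the other 2. Gpr171, which also lies inside Med12l, had a mean of 0.0606 CPM or less in every group. Med12l was at 1.90 ± 1.53, 6.08 ± 0.88, 0.0168 ± 0.0292 and 16.2 ± 7.76 CPM in Ai47 aSMCs, Ai14 aSMCs, astrocytes and cortex (SD, n = 6, 2, 3 and 6), lower in Ai47 aSMCs than in cortex by a log2 fold change of -3.07 (adjusted p = 0.00105, edgeR). The sources used here do not state the strand setting of the counting, so reads of the shared bases cannot be told apart.

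The stretches just upstream of the start are shown for these 3 neighbours and for P2rx1, since the 4 genes carried the opposite levels of aSMCs and cortex. They are RefSeq sequences of GRCm38.p6, 5′ to 3′ on the gene's strand, cut where the GENCODE gene model begins, at chr3:59153619-59153742 (minus), chr3:59210883-59211132 (minus), chr3:59262986-59263235 (minus) and chr11:72998895-72999102 (plus). Capitals mark GAGGAA, a purine-rich core that the myeloid factor PU.1 and other ETS factors can bind.
P2ry14: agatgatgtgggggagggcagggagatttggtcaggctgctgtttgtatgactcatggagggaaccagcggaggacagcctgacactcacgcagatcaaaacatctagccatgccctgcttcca
P2ry13: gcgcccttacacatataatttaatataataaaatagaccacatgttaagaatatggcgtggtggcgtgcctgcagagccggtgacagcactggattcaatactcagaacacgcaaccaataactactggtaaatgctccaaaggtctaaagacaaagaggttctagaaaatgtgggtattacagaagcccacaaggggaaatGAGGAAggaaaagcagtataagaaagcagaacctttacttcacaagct
P2ry12: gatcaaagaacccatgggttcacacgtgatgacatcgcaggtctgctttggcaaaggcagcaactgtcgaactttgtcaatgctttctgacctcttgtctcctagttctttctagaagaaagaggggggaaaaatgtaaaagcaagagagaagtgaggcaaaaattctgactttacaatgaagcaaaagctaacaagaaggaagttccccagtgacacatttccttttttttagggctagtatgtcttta
P2rx1: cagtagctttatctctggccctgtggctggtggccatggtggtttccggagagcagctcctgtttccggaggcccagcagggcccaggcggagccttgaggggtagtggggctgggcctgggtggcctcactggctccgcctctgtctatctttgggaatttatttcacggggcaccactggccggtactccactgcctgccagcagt

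Promoter windows of 250 bases upstream were given for 8 of the 9 members, with 13 starts in all, and none for P2ry6. GAGGAA, searched on both strands, was in 5 of the 13 windows, those of P2ry13 and of all 4 starts of P2ry14, and 23.3% of 32851 RefSeq promoter windows hold it. The windows of P2ry14 starts 2 and 3 overlap and hold the same match, so these windows are not independent. In the P2ry14 window shown in part above, the match lies in the bases that were not printed. The CArG box, the site of serum response factor in smooth muscle genes, was in none of the 13 windows and in 1.47% of all. These matches describe the letters only.

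P2ry14 was at 58.0, 70.6 and 101 CPM (lowest, median and highest) in Ai47 aSMCs, against 0.624, 1.26 and 8.13 CPM in cortex. All Ai47 libraries lay at least as high as 58.0 CPM and no cortex library came near them. The log2 fold change was 4.94 ± 0.65 with an adjusted p of 6.37e-06 in edgeR (exact permutation p = 0.00216), and it passed under all 23 alternatives, at 3.77 to 6.4. Ai14 aSMCs had 31.6 and 31.3 CPM, again above every cortex library, with a log2 fold change of 3.62 ± 0.92 and an adjusted p of 0.0213. Astrocytes had 1.59, 0 and 0.101 CPM, below both aSMC groups (log2 fold changes of 7.04 for Ai47 and 5.79 for Ai14 aSMCs, adjusted p of 0.000186 and 0.00412, edgeR). Astrocytes and cortex overlapped, and the log2 fold change of -2.17 did not pass (adjusted p = 0.103) but passed at -5.29 without astrocyte replicate 1 (adjusted p = 0.00492, in a range of 0.00492 to 0.474 over 19 alternatives). With TMM scaling Ai47 aSMCs were above Ai14 aSMCs in every library. In the other 2 scalings every Ai47 library was below both Ai14 libraries. These were library totals (24.5 to 48.3 against 69.8 and 68.9 CPM) and TPM (9.52 to 17.4 against 17.8 and 17.5 TPM). The log2 fold change of 1.25 ± 1.08 between the 2 aSMC groups did not pass in edgeR (adjusted p = 0.433). In a fit of these 2 groups alone it passed (1.39, adjusted p = 0.0107, in a range of 0.0107 to 0.712 over 16 alternatives), and with library totals it was -0.95. Of the 10 pericyte markers, 9 were tested in Ai47 aSMCs against cortex, of which 6 were higher, Abcc9 and Anpep were lower (log2 fold changes of -2.98 and -2.44) and Higd1b did not pass. The 10 pericyte markers summed to 3472 to 6582 CPM in Ai47 aSMCs and 11065 and 7984 CPM in Ai14 aSMCs, against 280 to 774 CPM in cortex. Rgs5 alone made up most of the sum in these 3 groups, at a mean of 3495, 8185 and 350 CPM of 4558, 9524 and 432 CPM. The part of pericyte RNA in the result was not tested.

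P2ry12 had no counts in any of the 6 Ai47 libraries, the deepest of the series. It was at 7.06 and 2.58 CPM in Ai14 aSMCs, 1.87, 2.54 and 1.87 CPM in astrocytes, and 31.2, 99.6 and 310 CPM (lowest, median and highest) in cortex. No sorted library reached the lowest cortex library. Counting 3 reads as the limit in each library, the level was at least 1041-fold lower in Ai47 aSMCs than in cortex, at least 36.6-fold lower than in Ai14 aSMCs and at least 15.9-fold lower than in astrocytes. All 3 differences passed in edgeR, with adjusted p of 2.61e-06, 3.63e-05 and 2.97e-05. Against cortex, Ai14 aSMCs were lower by a log2 fold change of -4.83 ± 1.27 (adjusted p = 0.0340) and astrocytes by -6.03 ± 1.128 (adjusted p = 0.000984).

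P2ry13 had the same order of groups as P2ry12. It had 4 counts in all over the Ai47 libraries (0 to 0.109 CPM), 4.32 and 1.33 CPM in Ai14 aSMCs, 0, 0 and 1.67 CPM in astrocytes, and 5.49, 40.0 and 147 CPM in cortex. With TMM scaling the sorted libraries were again all below cortex. By library totals, Ai14 replicate 7 (9.55 CPM) lay above cortex replicate 3 (6.04 CPM). In TPM, Ai14 replicates 7 and 8 (10.7 and 3.27 TPM) and astrocyte replicate 3 (4.08 TPM) lay above cortex replicate 3 (3.15 TPM). Ai14 replicate 7 also lay above cortex replicate 1 (8.87 TPM). The log2 fold change was -10.67 ± 1.26 in Ai47 aSMCs (adjusted p = 1.94e-06) and -6.56 ± 1.70 in astrocytes (adjusted p = 0.00605), while that of -4.33 ± 1.81 in Ai14 aSMCs did not pass (adjusted p = 0.178, edgeR). Ai47 aSMCs were lower than Ai14 aSMCs by -6.32 ± 1.41 (adjusted p = 0.00266), and without Ai14 replicate 7 this was -4.92 and no longer passed (adjusted p = 0.0601), nor did it with the 6 Ai47 libraries as 1 (-5.88, adjusted p = 0.348, in a range of 0.000193 to 0.348 over 16 alternatives). Ai47 aSMCs were also lower than astrocytes by -4.09 ± 1.33 (adjusted p = 0.0151), a call that rested on the single astrocyte library with counts (replicate 3), without which the value was 2.36, and that was also lost with the replicate block (adjusted p = 0.0716) and with the 6 Ai47 libraries as 1 (adjusted p = 0.309, in a range of 0.000691 to 0.507 over 17 alternatives).

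**Figure D2:**
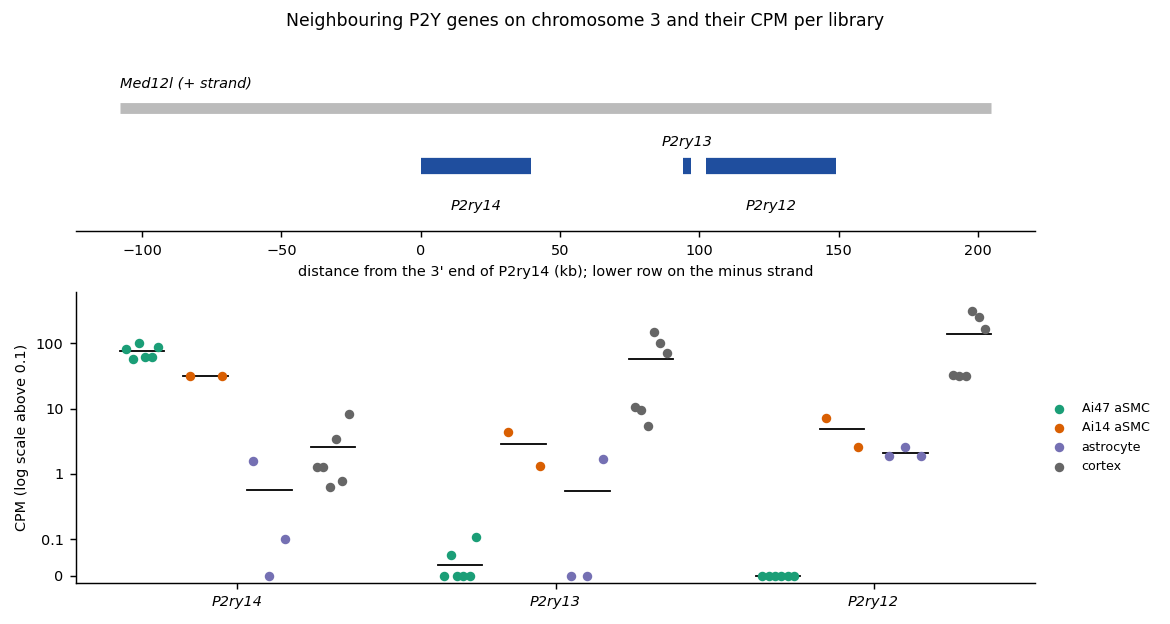
Top, the positions of P2ry14, P2ry13 and P2ry12 (minus strand) inside Med12l (plus strand), as distance in kb from the 3′ end of P2ry14. Bottom, CPM per library (logarithmic above 0.1 CPM) of the 3 P2Y genes in Ai47 aSMCs, Ai14 aSMCs, astrocytes and cortex, with a line at each group mean: P2ry14 averages 74.7 CPM in Ai47 aSMCs and 2.57 CPM in cortex, whereas P2ry12 averages 0 CPM in Ai47 aSMCs and 137 CPM in cortex.

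P2ry6, a Gq-coupled receptor for UDP that drives phagocytosis in microglia, lies on chromosome 7 at 100937630-100974649 on the minus strand, 21.9 kb from P2ry2. It had 1 count in Ai47 aSMCs (replicate 4), 0.609 and 0.758 CPM in Ai14 aSMCs, none in astrocytes, and 0.250, 3.79 and 8.01 CPM in cortex. Every Ai47 library was below every cortex library, with a ratio of cortex to Ai47 aSMCs of 407 (71.7 to 16194, exact Clopper-Pearson interval at 95%) and an exact permutation p of 0.00216. It fell under the filter of the 12-library fit, and in the fit of all 17 libraries the log2 fold change against cortex was -8.02 ± 1.32 (adjusted p = 5.84e-05, edgeR). Astrocytes were at least 13.6-fold below cortex (adjusted p = 0.00284). Ai14 aSMCs overlapped cortex (log2 fold change -2.41 ± 1.56, no call at an adjusted p of 0.424), and their ratio to Ai47 aSMCs was 96.1 (16.4 to 3880), which passed as lower in Ai47 aSMCs (adjusted p = 0.00431) but not with the 6 Ai47 libraries taken as 1 (adjusted p = 0.422, in a range of 0.000242 to 0.422 over 16 alternatives). Ai14 aSMCs were at least 2.52-fold higher than astrocytes (adjusted p = 0.0311).

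Markers of microglia and macrophages were, like P2ry6, P2ry12 and P2ry13, higher in cortex than in Ai47 aSMCs, but the ratio of receptor to markers was not the same in all groups. The 16 markers of the list, which holds none of the receptors, summed to 2.36 to 52.1 CPM in Ai47 aSMCs, 65.8 and 25.7 CPM in Ai14 aSMCs, 0.888 to 64.2 CPM in astrocytes, 246 to 264 CPM in cortex libraries 1 to 3 and 1111 to 2002 CPM in cortex libraries 4 to 6. Of the 13 tested, 11 were lower in Ai47 aSMCs than in cortex and none was higher, where 25% of all genes tested were lower. Aif1 and C1qc had no counts in Ai47 aSMCs. The 2 that did not pass were Cd68 (1.77 ± 3.49 CPM in Ai47 aSMCs against 13.6 ± 17.9 CPM in cortex) and Ptprc, which encodes CD45 (8.01 ± 15.0 against 10.9 ± 8.27 CPM, log2 fold change -0.29, adjusted p = 0.839, edgeR). P2ry12 showed the same step within cortex, at 31.6 ± 0.62 CPM in libraries 1 to 3 and 243 ± 72.1 CPM in libraries 4 to 6 (SD, n = 3 each), and P2ry13 stood at 8.49 ± 2.64 and 106 ± 39.2 CPM. As a percentage of the marker sum of the same library, P2ry12 was 10.7% and 10% in the 2 Ai14 libraries, 15.6%, 286% and 2.91% in the 3 astrocyte libraries, and 11.8% to 20.6% in cortex, but 0% in all 6 Ai47 libraries, also in replicate 1 with 52.1 CPM of markers. P2ry13 was 0% to 4.62% of the marker sum in Ai47 aSMCs, 6.56% and 5.19% in Ai14 aSMCs, 0%, 0% and 2.6% in astrocytes and 2.08% to 8.22% in cortex. P2ry6 was 0% to 0.242% in Ai47 aSMCs, 0.925% and 2.95% in Ai14 aSMCs, 0% in astrocytes and 0.0944% to 0.964% in cortex. Against the cortex range, both Ai14 libraries lay just below it for P2ry12 and inside it for P2ry13, and for P2ry6 replicate 8 lay above it. The part of microglial RNA in these results was not tested, and CD45-positive cells were removed in the sort of the Ai47 aSMCs.

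**Figure D3:**
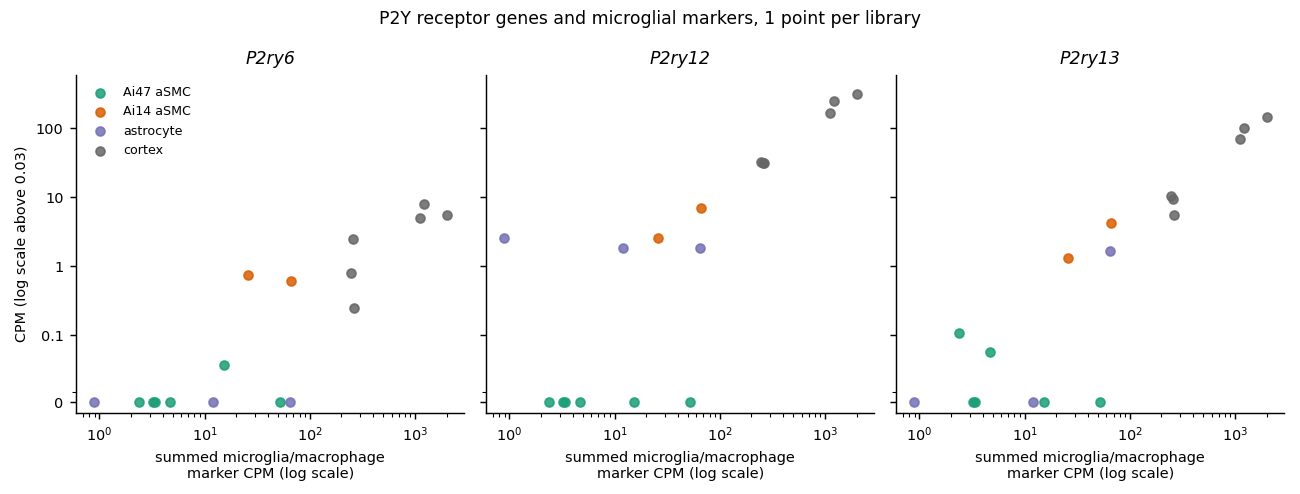
CPM of P2ry6, P2ry12 and P2ry13 (logarithmic above 0.03 CPM) against the summed CPM of 16 microglia and macrophage markers (logarithmic), with 1 point per library. Cortex libraries fall into a lower set at 246 to 264 CPM of markers and an upper set at 1111 to 2002 CPM, the Ai14 libraries lie at 25.7 and 65.8 CPM, and the Ai47 libraries lie at 52.1 CPM or less with P2ry12 at 0.

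P2ry1 and P2ry2 are Gq-coupled receptors, P2ry1 for ADP and P2ry2 for ATP and UTP. P2ry1 lies on chromosome 3 at 61002795-61008982 on the plus strand, and 992 bases (23.1%) of its exons overlap an antisense transcript, so its counts cannot be assigned to one strand. P2ry1 was at 0.109, 0.1345 and 0.367 CPM in Ai47 aSMCs, 0.365 and 0.788 CPM in Ai14 aSMCs, 15.0, 8.37 and 0 CPM in astrocytes, and 0.258, 2.08 and 3.74 CPM in cortex. The highest values were those of 2 astrocyte libraries, while the third had no count. Ai47 aSMCs overlapped cortex through cortex replicate 5 at 0.258 CPM, with an exact permutation p of 0.00433, and the log2 fold change was -3.41 ± 1.12 in the fit of all 17 libraries (adjusted p = 0.0152, edgeR). With the 6 Ai47 libraries taken as 1 this call was lost (-3.24, adjusted p = 0.355, in a range of 9.34e-05 to 0.355 over the 7 fits that gave a value). Astrocytes did not pass against cortex (1.96 ± 1.19, adjusted p = 0.208), and Ai47 aSMCs were lower than astrocytes (-5.37 ± 1.28, adjusted p = 0.00189). These 2 groups overlapped through the astrocyte library without counts, with an exact permutation p of 0.167, and the call was lost with the replicate block (-4.16, adjusted p = 0.103) and with the 6 Ai47 libraries as 1 (-4.99, adjusted p = 0.282, in a range of 5.94e-06 to 0.282 over 17 alternatives). P2ry2, on chromosome 7 at 100996568-101012866 on the minus strand, had 58 counts in Ai14 aSMCs (0.457 and 1.30 CPM), no count in Ai47 aSMCs, and a single count each in astrocytes and cortex. Ai47 aSMCs were at least 6.68-fold lower than Ai14 aSMCs, and the ratio of Ai14 aSMCs to cortex was 38.4 (6.62 to 1541), both without an edgeR test and at an exact permutation p of 0.0714, the smallest that 2 against 6 libraries allow.

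In Ai14 aSMCs against cortex, 2 of the 8 members tested were higher (P2rx1 and P2ry14) and 1 was lower (P2ry12), where 3.97% of 14927 genes were higher and 2.0% were lower. These calls are less firm than those of Ai47 aSMCs: P2rx1 passed under 15 of 17 alternatives, P2ry12 under 9 and P2ry14 under 7, all in the same direction. The number called higher was 0 without Ai14 replicate 8 and 1 without Ai14 replicate 7 or any one of cortex replicates 1 to 5, and the number called lower was 0 without Ai14 replicate 7 or 8 or any one of cortex replicates 4 to 6. Under DESeq2's size factors 49.6% of the calls over all genes were higher, against 66.6% with TMM. Without cortex libraries 1 to 3 no member was called higher, and without cortex libraries 4 to 6 none was called lower. In astrocytes against cortex, none of the 8 was higher (0 also at unadjusted p under 0.05 and with DESeq2) and 3 were lower (P2ry6, P2ry12 and P2ry13), where 14.6% of all genes were higher and 19.8% lower. Without cortex libraries 4 to 6, P2ry13 was no longer called (-3.96, adjusted p = 0.1105, in a range of 4.03e-06 to 0.1105 over 19 alternatives). The 3 comparisons with cortex share the cortex libraries.

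Between the aSMC groups, none of the 8 members tested was higher in Ai47 than in Ai14 aSMCs (0 also at unadjusted p under 0.05 and with DESeq2), and 3 were lower, P2ry6, P2ry12 and P2ry13. Of all 14927 genes 9.55% were higher and 16.0% were lower. The reporter, the library depth and the mitochondrial share of counts, among others, differ between these groups, and their parts cannot be told apart. The study describes removal of CD31-positive and CD45-positive cells for the Ai47 sort. Whether it applied to the Ai14 libraries is not stated in the sources used here. Against astrocytes, Ai47 aSMCs were higher in 2 (P2rx1 and P2ry14) and lower in 3 (P2ry1, P2ry12 and P2ry13), where 26.1% of genes were higher and 23.8% lower. Ai14 aSMCs were higher than astrocytes in 3 (P2rx1, P2ry6 and P2ry14) and lower in none (0 at unadjusted p under 0.05, 1 with DESeq2), where 13.6% of genes were higher and 3.56% lower. In a fit of Ai14 aSMCs and astrocytes alone P2rx1 and P2ry14 did not pass and P2ry6 gave no value. Without astrocyte replicate 3, P2rx7 and P2ry13 also passed as higher and P2ry1 as lower (adjusted p = 0.0327, 0.0319 and 0.0421, against ranges of 0.0327 to 1, 0.0319 to 0.809 and 0.0146 to 0.519 over 12 alternatives each). The call of P2ry6 was also lost without any one of the 5 libraries, at adjusted p of 0.0622 to 0.111 (0.0334 to 0.111 over 11 alternatives).

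**Figure D4:**
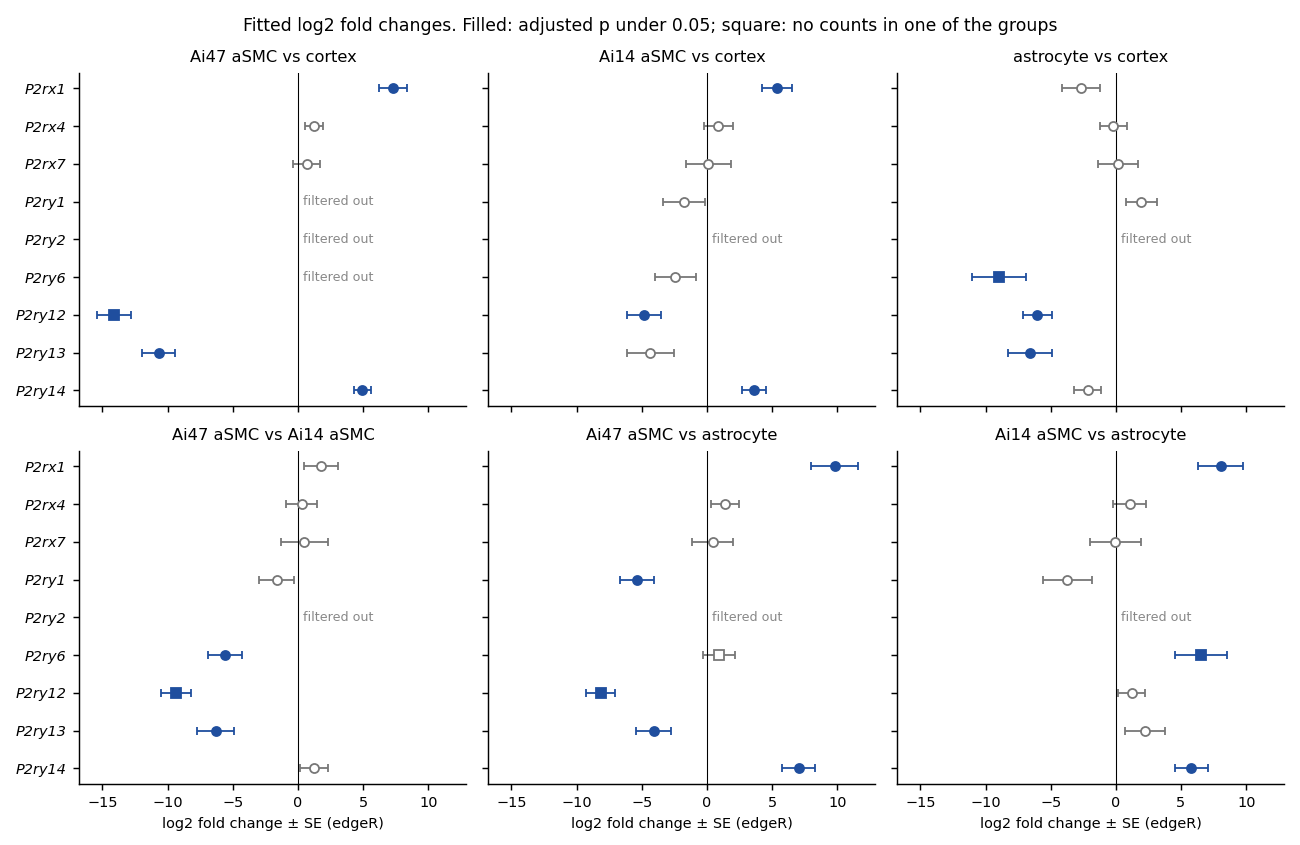
Log2 fold changes with standard errors (edgeR) of the 9 receptor genes in the 6 comparisons; filled points passed at an adjusted p under 0.05, open points did not, and squares mark a gene with no counts in 1 of the groups, whose fitted value is no measure of size. P2rx1 and P2ry14 lie right of 0 and P2ry13 left of 0 in Ai47 aSMCs against cortex (7.27, 4.94 and -10.67).

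Per length, P2rx1 led the receptors of both aSMC groups. In TPM from GENCODE M21 exon lengths, it was at 37.8 ± 25.6 TPM in Ai47 aSMCs and 38.1 ± 8.97 TPM in Ai14 aSMCs (SD, n = 6 and 2), which is 66.2% and 40.2% of the summed mean TPM of the 9 genes. P2ry14 came next at 12.7 ± 3.64 and 17.7 ± 0.21 TPM. P2rx1 was above P2ry14 in 5 of the 6 Ai47 libraries and in both Ai14 libraries, so in Ai47 aSMCs these neighbours in the order overlapped, whereas P2ry14 was above P2rx4 in all 6 with no overlap. P2rx4 (3.94 ± 2.03 TPM) and P2rx7 (2.52 ± 3.69 TPM) overlapped in Ai47 aSMCs, and the other 5 genes were under 0.1 TPM. In Ai14 aSMCs P2ry12 (11.8 ± 7.80 TPM), P2rx4 (10.6 ± 1.30 TPM), P2ry13 (6.97 ± 5.23 TPM) and P2rx7 (6.0 ± 2.15 TPM) overlapped one another from neighbour to neighbour. In astrocytes the first 4 (P2ry1, P2rx7, P2rx4 and P2ry12, 8.29 to 3.93 TPM) also overlapped. In cortex P2ry12 was at 58.5 ± 40.2 TPM and P2ry13 at 23.7 ± 21.0 TPM, with P2ry12 higher in all 6 libraries, and the remaining 7 genes were at 1.55 TPM or less.

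**Figure D5:**
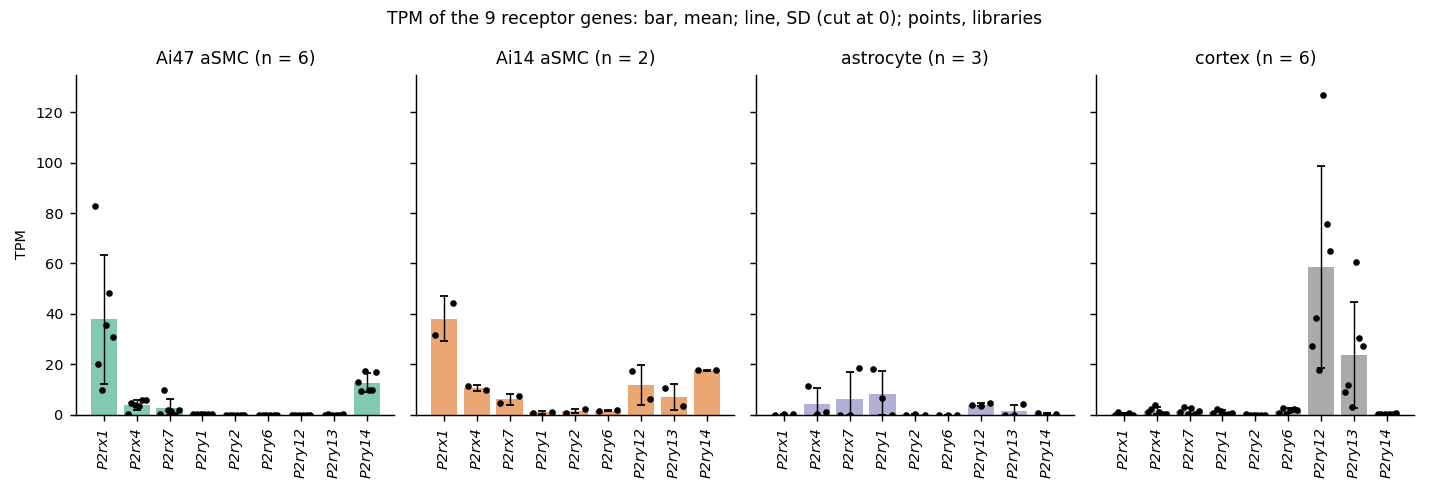
TPM of the 9 receptor genes in Ai47 aSMCs (n = 6), Ai14 aSMCs (n = 2), astrocytes (n = 3) and cortex (n = 6); bars are means, lines SD (cut at 0) and points libraries. P2rx1 has the highest mean in both aSMC groups (37.8 and 38.1 TPM), P2ry1 in astrocytes (8.29 TPM) and P2ry12 in cortex (58.5 TPM).

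Genes with the most similar pattern were sought by Pearson's r of log2(CPM + 0.5) over the 17 libraries, which share their depth, group and composition, so the values are descriptions. Uba2 (0.971) and Tfap2b (0.969) were most like P2rx1, and Trpv2 (0.978) and Adamts5 (0.974) most like P2ry14. The r of P2rx1 with P2ry14 was 0.897. C1qc (0.980), a complement gene of microglia, and Tlr7 (0.978) were most like P2ry13, Pik3cg (0.977) and Gpr34 (0.972) most like P2ry6, and mt-Nd1 (0.966) and Evi2a (0.965) most like P2ry12. P2ry12 and P2ry13 had an r of 0.964 with each other. The values were lower for P2ry1 (Dnaic2, 0.878, and Ift20, 0.868, genes of cilia), P2rx4 (Nr3c1, 0.858, and Xrn1, 0.843) and P2rx7 (Apaf1, 0.841, and Nubp1, 0.784).

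None of the other 7 P2X and P2Y genes passed the filter of the 12-library fit, and 2 passed that of the 17-library fit. P2rx6 was at 0.529 ± 1.18 CPM in Ai47 aSMCs, 0.137 ± 0.194 CPM in Ai14 aSMCs, 2.07 ± 1.39 CPM in astrocytes and 0.237 ± 0.478 CPM in cortex, with no call, and 13.9% of its exon bases overlap Slc7a4. P2ry10b was lower in astrocytes (0.0168 ± 0.0292 CPM) than in cortex (0.889 ± 0.978 CPM, adjusted p = 0.0270, edgeR). Of 17 genes of nucleotide release and breakdown, 9 were tested in Ai47 aSMCs against cortex, 4 were higher and 2 lower (4 and 5 with DESeq2), beside 33.6% and 25% of all genes, with a median log2 fold change of 1.24 (0.32 over all genes tested). In Ai14 aSMCs against cortex none of 14 tested was higher or lower (1 and 3 at unadjusted p under 0.05, 0 and 2 with DESeq2), where 3.97% and 2.0% of all genes were. The largest rises in Ai47 aSMCs were those of Lrrc8a, a subunit of the volume-regulated anion channel (3211 ± 785 CPM in Ai47 aSMCs against 42.8 ± 17.7 CPM in cortex), and Pnp, a purine nucleoside phosphorylase (911 ± 266 against 17.8 ± 14 CPM). Both were also higher in Ai47 than in Ai14 aSMCs (log2 fold changes of 5.63 and 5.84), where they stood at 64.8 ± 9.58 and 15.9 ± 5.75 CPM. The lower 2 were Panx2, a pannexin (0.0289 ± 0.0499 against 9.60 ± 4.38 CPM), and Adk, adenosine kinase (1.20 ± 0.377 against 11.5 ± 7.84 CPM).

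Of 15 genes of G protein and phospholipase C signalling, through which P2Y receptors act, all were tested in Ai47 aSMCs against cortex, 2 were higher and 8 lower, beside 33.6% and 25% of all genes, and the median log2 fold change was -1.06 (0.32 over all genes tested). The 2 higher genes encode the Gq-family subunits that couple to P2ry1, P2ry2 and P2ry6: Gna11 was at 2762 ± 617 CPM in Ai47 aSMCs against 27.5 ± 10.4 CPM in cortex, and Gnaq at 416 ± 69.9 against 83.5 ± 20.1 CPM. Gna11 was at 36.6 ± 2.13 CPM in Ai14 aSMCs and was higher in Ai47 aSMCs (log2 fold change 6.24). The largest falls were in Plcb2, a phospholipase C of blood cells (0.00676 ± 0.0166 CPM in Ai47 aSMCs against 2.33 ± 1.95 CPM in cortex), and Gnai1, a Gi subunit (4.89 ± 9.86 against 78.5 ± 29.3 CPM). In Ai14 aSMCs against cortex 1 of the 15 was higher, Plcb4, at 216 ± 5.96 against 21.1 ± 9.76 CPM, and none was lower (2 at unadjusted p under 0.05, and 2 with DESeq2), where 3.97% of all genes were higher and 2.0% lower.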

How the data were processed

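Bulk RNA-seq counts of 17 libraries were analysed, grouped by their labels. The authors deposited whole-number raw counts for each gene symbol, without normalization. The study's methods name TopHat, htseq-count and DESeq2 with a TruSeq kit, whereas the submitters' processing notes list Salmon 1.4.0, Trim Galore 0.6.7 and GRCm38, and the labels a NuGEN kit. The route that made the counts, its annotation and its strand setting were not given in the sources used here. Symbols were matched to GENCODE M21 (97.4% of genes).

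Ai47 aSMCs and cortex were compared in edgeR 4.0.16 (R 4.3.3) over their 12 libraries (11548 genes) and all other pairs in 1 fit of 17 libraries (14927 genes), with filterByExpr (minimum count 10), TMM, the quasi-likelihood test and Benjamini-Hochberg adjusted p under 0.05. For each member, log2(CPM + 0.5) of the 2 groups was set against all reassignments of the libraries (exact permutation, two-sided). Groups with no counts were bounded with 3 counts per library, and 1 to 3 counts got a Clopper-Pearson interval at 95%. Levels are CPM on the 17-library scale. Python 3.11.15 with scipy 1.17.1, pandas 2.3.3, numpy 2.4.6 and matplotlib 3.10.9 were used for tables and plots. The script was tested on simulated data.

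The 9 members, the lists, tests and alternatives were chosen with earlier results of these data known. All members are named, with genes that overlap or neighbour them, the other P2 genes that passed a filter, the 2 largest calls of each list in each direction in Ai47 aSMCs against cortex, and the 2 genes most alike. A neighbouring gene that the rule names is not reported here. Plcb4 and the ratios to microglial markers were added after their values were seen. Alternatives were DESeq2 1.42.0 and its size factors, library totals, other filters, no mitochondrial genes, other samples in the fit, a replicate block, the 6 Ai47 libraries as 1, 3 cortex libraries left out, and each library left out.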

Additional observations from a re-analysis of the deposited data

Results flagged for a closer look

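Single libraries stood apart in 5 of the 16 gene and group pairs that could be looked at (groups of 4 to 10 libraries). No rate by chance is set beside this, since a single count among libraries at 0 always stands apart. P2rx4 was at 19.3 CPM in cortex replicate 3, with the next library at 6.53 CPM. P2rx7 was at 32.5 CPM in Ai47 aSMC replicate 2, with the next at 5.60 CPM. P2ry14 was at 8.13 CPM in cortex replicate 6, with the next at 3.36 CPM. For P2ry2 in cortex replicate 1 (0.114 CPM) and P2ry6 in Ai47 aSMC replicate 4 (0.0368 CPM) the high value was a single count among libraries at 0.

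The difference from cortex was not the same in the 2 aSMC groups for 3 genes, by a contrast of Ai47 with Ai14 aSMCs in the edgeR fit of 17 libraries. The log2 fold change of Ai47 minus that of Ai14 aSMCs was -5.61 for P2ry6 (adjusted p = 0.00431), -9.36 for P2ry12 (adjusted p = 3.63e-05) and -6.32 for P2ry13 (adjusted p = 0.00266). This is the comparison of Ai47 with Ai14 aSMCs given above, with the limits stated there for P2ry6 and P2ry13. Of all 14927 genes tested in it, 16.0% were lower in Ai47 aSMCs. All 6 Ai47 libraries were below both Ai14 libraries for each of the 3, and the share of all genes without overlap was not counted. The fitted value of P2ry12, which has no counts in Ai47 aSMCs, is no measure of size.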

How the results depend on the processing

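Direction and call held in all 23 alternatives for P2rx1, P2ry12, P2ry13 and P2ry14 in Ai47 aSMCs against cortex. Members called lower there numbered 4 without a filter, without mitochondrial genes, with DESeq2, in the fit of all 17 libraries and without cortex libraries 4 to 6 (against 2), since P2ry1 and P2ry6 then passed the filter and the test. Leaving out 1 library gave 2 to 3 higher and 2 to 4 lower. In Ai14 aSMCs against cortex, 1 was higher with DESeq2 size factors or no filter and 0 without cortex libraries 1 to 3 (against 2), and 0 were lower with library totals, no filter or without cortex libraries 4 to 6 and 2 with DESeq2 or the 2 groups alone (against 1). Leaving out 1 library gave 0 to 2 higher and 0 to 1 lower. In astrocytes against cortex leaving out 1 library gave 3 to 4 lower. Between Ai47 and Ai14 aSMCs, 1 was higher in the 2 groups alone (P2ry14, against 0) and 1 was lower with the 6 Ai47 libraries as 1 (P2ry12, against 3). In Ai47 aSMCs against astrocytes, 1 was lower (against 3) in the 2 groups alone, with the replicate block and with the Ai47 libraries as 1, and leaving out 1 library gave 2 to 3 in each direction. In Ai14 aSMCs against astrocytes, 0 were higher in the 2 groups alone (against 3) and 1 was lower with DESeq2 (against 0), and leaving out 1 library gave 2 to 4 higher and 0 to 1 lower. Members at a mean of 1 CPM or more numbered 6 to 7 in Ai14 aSMCs and 3 to 4 in astrocytes when 1 library was left out. Where no filter or sample change is named, the cause was not tested.

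Log2 fold changes that changed sign belonged to differences that had not passed, apart from P2ry13 in Ai47 aSMCs against astrocytes. With library totals, P2rx4 and P2rx7 were -0.11 and -0.73 in Ai47 aSMCs against cortex, P2rx4 was 0.81 in astrocytes against cortex, P2rx1, P2rx4, P2rx7 and P2ry14 were -0.47, -1.88, -1.8 and -0.95 in Ai47 against Ai14 aSMCs, and P2rx4 and P2rx7 were -0.91 and -2.12 in Ai47 aSMCs against astrocytes. P2rx7 in Ai14 aSMCs against cortex was -0.43 with DESeq2 size factors and with DESeq2, -0.11 with no filter, -0.062 without mitochondrial genes, -0.16 with a minimum of 1 CPM, -0.19 in the 2 groups alone and -0.37 without cortex libraries 1 to 3. P2rx7 in astrocytes against cortex was -0.15 with size factors, -0.16 with DESeq2 and -0.33 without cortex libraries 1 to 3, where P2rx4 was 0.54. P2ry6 in Ai47 aSMCs against astrocytes was -0.65 with DESeq2. With 1 library left out, P2rx7 ranged over -0.695 to 1.352 (Ai47 aSMCs against cortex), -0.61 to 0.46 (Ai14 aSMCs against cortex), -9.53 to 0.62 (astrocytes against cortex), -0.37 to 1.32 (Ai47 against Ai14 aSMCs), -0.47 to 10.23 (Ai47 aSMCs against astrocytes) and -0.73 to 9.37 (Ai14 aSMCs against astrocytes), P2rx4 over -2.97 to 0.27 (astrocytes against cortex) and P2ry13 over -4.83 to 2.36 (Ai47 aSMCs against astrocytes).

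Replicate numbers did not pair the libraries (correlations of deviations of -0.0505 to 0.0323 over the pairs of 3 group pairs). With the replicate block, 2 members were higher and 2 lower in Ai47 aSMCs against cortex and 3 were lower in astrocytes against cortex, as without it, and P2rx7 was -0.36 and -2.73 in these comparisons and P2ry6 -1.33 in Ai47 aSMCs against astrocytes.

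Library totals moved the median log2 fold change of all genes by -1.45 in Ai47 aSMCs against cortex (33.9% of calls higher, against 57.3%), 0.86 in Ai14 aSMCs against cortex (90.4%, against 66.6%), 0.88 in astrocytes against cortex (60.8%, against 42.4%), -2.18 in Ai47 against Ai14 aSMCs (7.48%, against 37.3%) and -2.11 in Ai47 aSMCs against astrocytes (22.4%, against 52.3%). DESeq2 moved it by -0.49 (23.3% of calls higher) in Ai14 aSMCs against cortex, by 0.35 (57.4%) in Ai47 against Ai14 aSMCs and by -0.42 (54.2%, against 79.2%) in Ai14 aSMCs against astrocytes. At 1 count or none per library, levels of P2ry2 and P2ry6 in Ai47 aSMCs and astrocytes were not resolved beyond the bounds and counting intervals given above.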
